A study of Homo sapiens with 24 samples.

Results

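The genes described here encode the RAS protein NRAS, 3 feedback inhibitors of RAS signalling (DUSP6, SPRY2 and SPRY4) and 4 subunits of the transcription factor AP-1 (FOS, JUN, FOSL1 and FOSL2). For each gene, all peaks overlapping 1 fixed window of 100 to 130 kb in build hg19 were taken from 14 ChIP-seq peak lists. The 8 windows held 485 of 564552 peaks. The windows were fixed positions on the chromosome, not peaks picked by their values, but they were chosen with earlier results of these data known.

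All libraries came from the established human cell line RD, grown from a fusion-negative rhabdomyosarcoma, which is a soft tissue tumour with features of skeletal muscle. TWIST2 KD cells (TWIST2 knockdown) were set beside control cells with antibodies against H3K27ac, MYOD and SMARCA4 (BRG1), with 2 libraries per group and antibody. A further 2 libraries used a Ty1 antibody in cells labelled 3xTy1-TWIST2, for which the labels give no genotype, and no Ty1 library of untagged cells was used here. How TWIST2 was knocked down, whether replicates were separate cultures, and what separates the sets named RD-1 (H3K27ac, MYOD and Ty1) and RD-2 (SMARCA4) are not given in the labels. Peak lists hold no transcript levels, so neither the knockdown nor the identity of the line was checked.

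RAS proteins pass growth factor signals through the RAF, MEK and ERK kinases. ERK activity induces genes that damp the same pathway: DUSP6 is a phosphatase that inactivates ERK, and the Sprouty proteins SPRY2 and SPRY4 act upstream of ERK. It also induces FOS family proteins, which pair with JUN to form AP-1 and bind the sequence TGANTCA. Fusion-negative rhabdomyosarcomas often carry RAS pathway mutations. H3K27ac marks active promoters and enhancers, MYOD and TWIST2 are basic helix-loop-helix factors that bind E-boxes (CANNTG), and SMARCA4 is an ATPase of SWI/SNF chromatin remodelling complexes.

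RefSeq promoter sequences of build GRCh38.p14 were found for 7 of the 8 genes. Those of NRAS, SPRY2 and SPRY4, whose windows had the highest and the lowest KD over control ratios of H3K27ac coverage, and of JUN, where AP-1 is known to act on its own gene, are printed 5′ to 3′ on the strand of the gene. Each is the 250 bases before the start, and capitals mark an E-box (CANNTG) or the JUN element TGACATCA.
NRAS promoter, chr1:114716772-114717021, minus strand: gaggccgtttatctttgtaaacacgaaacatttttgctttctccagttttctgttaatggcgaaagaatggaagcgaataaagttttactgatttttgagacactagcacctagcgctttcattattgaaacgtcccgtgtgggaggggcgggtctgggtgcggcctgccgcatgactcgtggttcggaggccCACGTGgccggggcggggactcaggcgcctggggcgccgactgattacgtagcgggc
SPRY2 promoter, chr13:80341127-80341376, minus strand: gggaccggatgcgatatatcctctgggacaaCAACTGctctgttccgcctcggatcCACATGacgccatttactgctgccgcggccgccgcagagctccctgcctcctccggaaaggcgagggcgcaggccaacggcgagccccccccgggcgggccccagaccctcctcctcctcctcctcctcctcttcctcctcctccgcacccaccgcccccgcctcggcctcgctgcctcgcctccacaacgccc
SPRY4 promoter, chr5:142324248-142324497, minus strand: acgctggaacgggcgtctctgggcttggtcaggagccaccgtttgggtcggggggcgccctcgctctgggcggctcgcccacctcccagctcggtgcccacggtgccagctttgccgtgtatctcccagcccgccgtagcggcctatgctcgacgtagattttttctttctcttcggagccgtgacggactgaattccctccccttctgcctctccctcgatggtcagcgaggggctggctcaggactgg
JUN promoter, chr1:58784048-58784297, minus strand: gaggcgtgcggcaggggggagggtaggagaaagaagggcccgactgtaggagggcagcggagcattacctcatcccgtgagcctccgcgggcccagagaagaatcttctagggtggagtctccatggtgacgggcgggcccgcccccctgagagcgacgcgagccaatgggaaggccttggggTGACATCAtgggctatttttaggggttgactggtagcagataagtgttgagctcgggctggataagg

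An E-box stood in the NRAS sequence, in 1 of 3 SPRY2 entries (the one shown) and in that of FOSL2, and in none of DUSP6, SPRY4, FOS and JUN. Of 35116 promoters of that length, 61.8% held one. TGACATCA stood 67 bases before the JUN start and in 2.37% of all promoters, and TGANTCA stood in 6.57% of all promoters and in none of these. Both strands were searched, and no motif overlapped another. These sequences belong to another build than the peaks, so they were not placed against them, and no peak was assigned to a promoter, exon or intron. In the RefSeq gene order, the neighbours are KITLG and POC1B for DUSP6, NDFIP2 and SLITRK1 for SPRY2, NDFIP1 and FGF1 for SPRY4, TMED10 and JDP2 for FOS, MYSM1 and FGGY for JUN, CCDC85B and C11orf68 for FOSL1, and BABAM2 and PLB1 for FOSL2. A peak in a window may belong to a neighbouring gene.

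Over the whole genome, the H3K27ac lists held 48022 and 46822 peaks in KD cells and 36679 and 34932 in control cells, and the MYOD lists 52510 and 48003 in KD cells and 44974 and 43381 in control cells. The SMARCA4 lists held 12518 and 14676 peaks in KD cells and 11835 and 25013 in control cells, from 36095336 and 41066933 tags in KD libraries and 46690705 and 44810601 in control libraries. Per the file headers, 0.65 and 0.70% of tags lay in peaks in the SMARCA4 KD libraries, and 0.88 and 1.83% in the control libraries. The depth of the other lists is unknown. Every MYOD and SMARCA4 list had 1 fixed peak width, so width is compared only for H3K27ac. With 2 against 2 libraries, the two-sided exact permutation test cannot give a p below 0.333, so no difference between groups here could reach 0.05, and "higher" or "lower" below means only that both KD libraries lay on 1 side of both control libraries. The genomic share of equal tiles of 110 kb that met the same condition is given beside each count.

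H3K27ac around these genes differed in direction from window to window. The bases under H3K27ac peaks were higher in KD than in control cells at NRAS, DUSP6, FOS and FOSL2, lower at SPRY2 and SPRY4, and overlapped between groups at JUN and FOSL1. Of 15065 tiles with a peak, 62.5% were higher and 18.1% were lower in KD cells, with a median KD over control ratio of 1.24. Lower coverage was met in 2 and higher coverage in 4 of the 8 windows, and no test was made of these counts against the genomic shares. Summed over the 8 windows, peaks covered 151535 and 147139 bp in KD libraries and 149185 and 143934 bp in control libraries. The groups overlapped (ratio 1.02, p = 0.667, exact permutation test, n = 2 each).

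**Figure D1:**
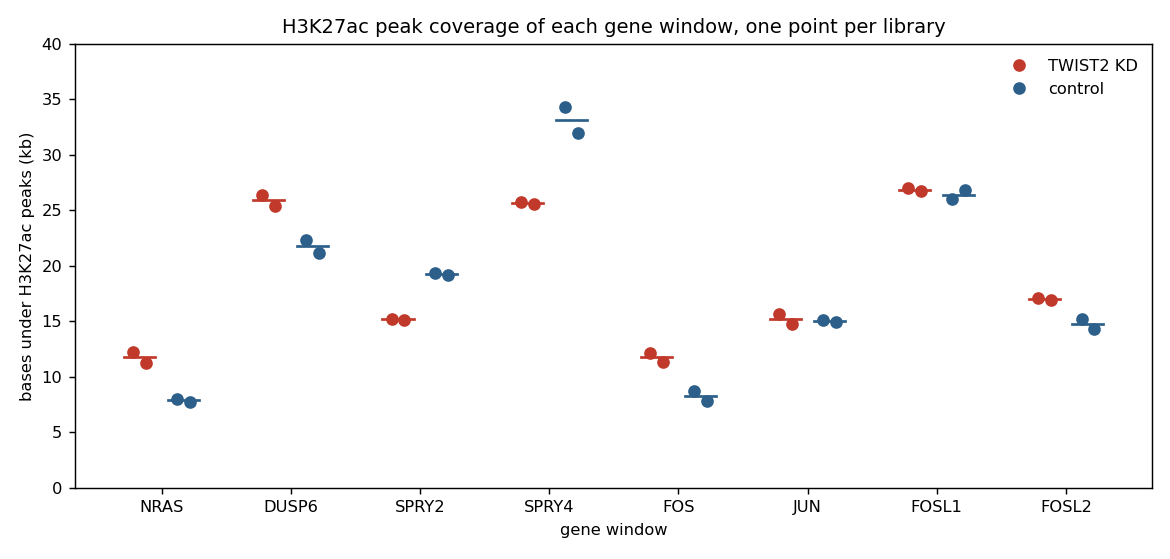
Bases under H3K27ac peaks (kb, from 0) in each gene window, with 1 point per library, TWIST2 KD left of control, and a line at the mean of each group. KD points lie above control points at NRAS, DUSP6, FOS and FOSL2 and below them at SPRY2 and SPRY4.

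The number of H3K27ac peaks in the windows was 47 and 42 in KD libraries and 40 and 37 in control libraries, a ratio of 1.16 (p = 0.333, exact permutation test, n = 2 each). Relative to the length of each list the order was the opposite, with 9.79 and 8.97 window peaks per 10000 peaks in KD libraries and 10.91 and 10.59 in control libraries. Peak number was higher in KD cells at SPRY2, SPRY4, FOS and FOSL2, against 40.8% of tiles, and lower at FOSL1, against 6.51% of tiles. The widest single peak was wider in KD cells at NRAS, FOSL1 and FOSL2, against 55.2% of tiles, and narrower at DUSP6, SPRY2, SPRY4 and FOS, against 21.2% of tiles. The windows held 1.88 times as many H3K27ac peaks as the average tile.

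At NRAS, the small GTPase itself, peaks covered 12269 and 11273 bp in KD libraries, against 7967 and 7772 bp in control libraries, a ratio of 1.5. All 3 regions that had a peak in all 4 libraries (called shared regions) held more peak bases in KD cells, with ratios of 1.33 to 1.62. The widest, chr1:115296008-115301662, was covered by 5566 and 5655 bp in KD libraries and by 3548 and 3386 bp in control libraries. No H3K27ac region at NRAS was found in both libraries of 1 group alone.

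At DUSP6, the ERK phosphatase, coverage was 26392 and 25415 bp in KD libraries and 22349 and 21157 bp in control libraries. The widest region did not share that direction. It was chr12:89736236-89751874, with 14589 and 14716 bp in KD libraries and 15387 and 15516 bp in control libraries. The extra bases in KD cells lay farther along the window, in regions singled out after their values were seen. The shared region chr12:89770842-89772654 had 1813 and 1478 bp in KD libraries and 501 and 669 bp in control libraries, a ratio of 2.81. Its neighbour chr12:89776341-89780623 had 4283 and 3658 bp in KD libraries, against 1027 bp in control library 1 and no peak in control library 2.

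At SPRY2, coverage was 15234 and 15163 bp in KD libraries and 19389 and 19220 bp in control libraries, a ratio of 0.79. All 3 regions of the window were shared, and all 3 held fewer peak bases in KD cells. The widest, chr13:80908259-80919128, differed little, with 10129 and 10159 bp in KD libraries and 10584 and 10575 bp in control libraries. The region chr13:80932134-80938997 had 3801 and 3590 bp in KD libraries and 6864 and 6528 bp in control libraries. It was 2 peaks in each KD library, with a gap of 1966 and 1907 bp between them, and 1 peak in each control library, so that the peak number was higher (4 and 4 in KD libraries, 3 and 3 in control libraries) while coverage was lower.

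SPRY4, the other Sprouty gene, showed the same form. How often regions of the genome were divided in this way was not counted, so the form cannot be called particular to these genes. Coverage was 25720 and 25580 bp in KD libraries and 34316 and 31936 bp in control libraries, a ratio of 0.77. Peak number was again higher, at 7 and 7 in KD libraries and 5 and 5 in control libraries. Its broadest region, chr5:141693890-141709275, was 2 peaks in each KD library that together covered 12881 and 11471 bp, with gaps of 674 and 1969 bp. In control libraries it was a single peak of 15386 and 14190 bp. The second broad region, chr5:141733560-141746052, was likewise 2 peaks covering 8601 and 8582 bp in KD libraries and 1 peak of 12493 and 11511 bp in control libraries. A smaller region, chr5:141666548-141668204, had 501 and 765 bp in KD libraries and 1657 and 1473 bp in control libraries. The exception among the 5 shared regions was chr5:141658971-141660856, with 1859 and 1855 bp in KD libraries and 1816 and 1651 bp in control libraries.

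**Figure D2:**
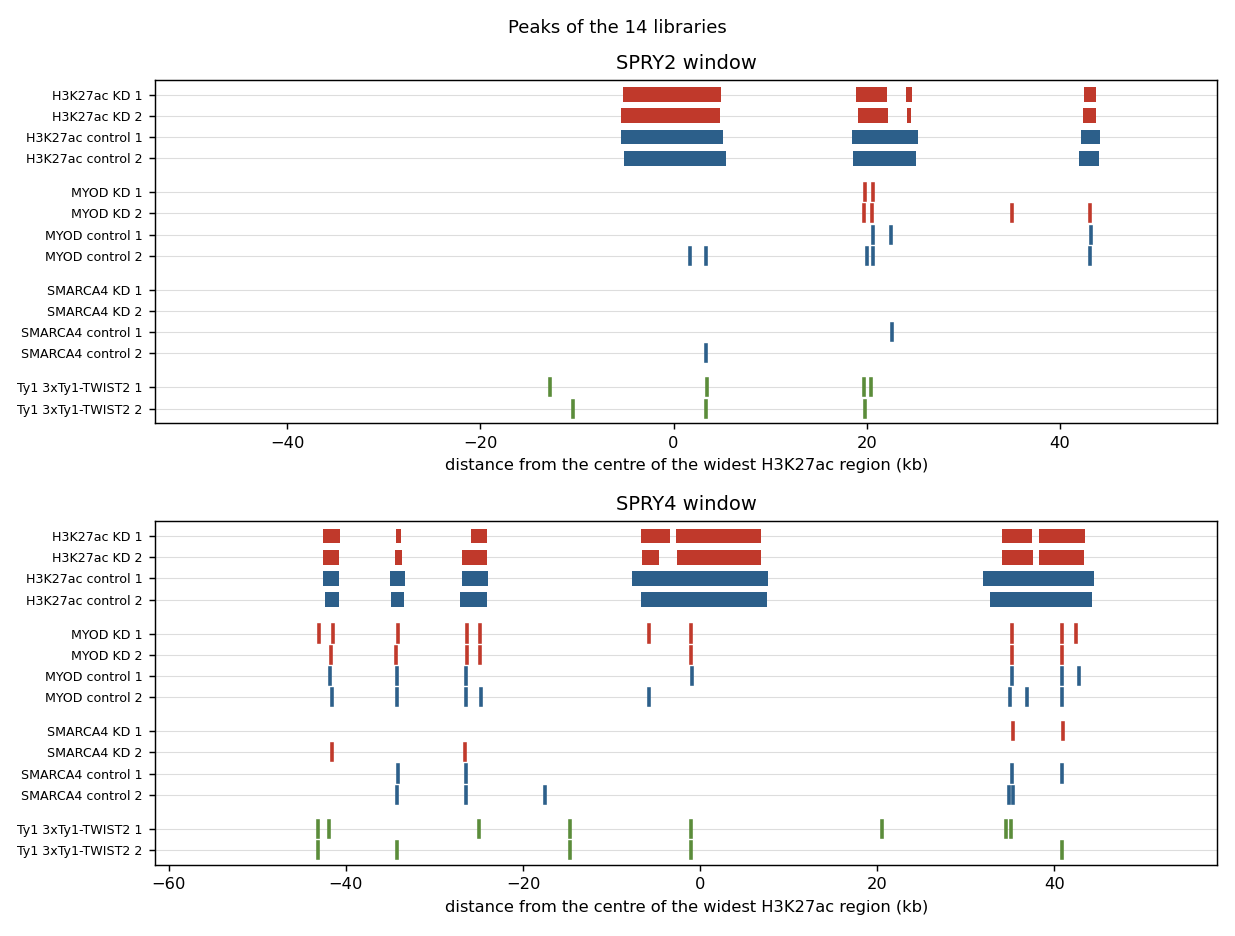
Peaks of the 14 libraries in the SPRY2 and SPRY4 windows, as distance in kb from the centre of the widest H3K27ac region, with KD rows (red) above control rows (blue) and Ty1 rows (green) last. Boxes show H3K27ac peaks to scale, and ticks mark the centres of MYOD, SMARCA4 and Ty1 peaks. A pair of KD boxes stands above a single wide control box in 1 region of SPRY2 and 2 regions of SPRY4.

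Taking both Sprouty windows, a grouping made after their values were seen, 7 of 8 shared regions held fewer peak bases in KD cells and 1 held more (median ratio 0.76). In the other 6 windows, 6 of 24 shared regions held fewer, 12 held more and 6 overlapped (median ratio 1.04). Over all 8 windows, 13 of 32 (40.6%) were lower and 13 of 32 (40.6%) higher in KD cells. Among 27442 shared regions of the genome, 29.8% were lower and 45.4% higher, with a median ratio of 1.05. The windows held 11 shared regions of 5 kb or more in control cells, of which 5 were lower and 3 higher in KD cells and 3 overlapped. The 5 lower ones were the 2 broad SPRY4 regions, 2 of SPRY2 and the widest of DUSP6. Of 2734 regions of that breadth in the genome, 49.7% were lower and 30.5% higher in KD cells, with a median ratio of 0.95.

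**Figure D3:**
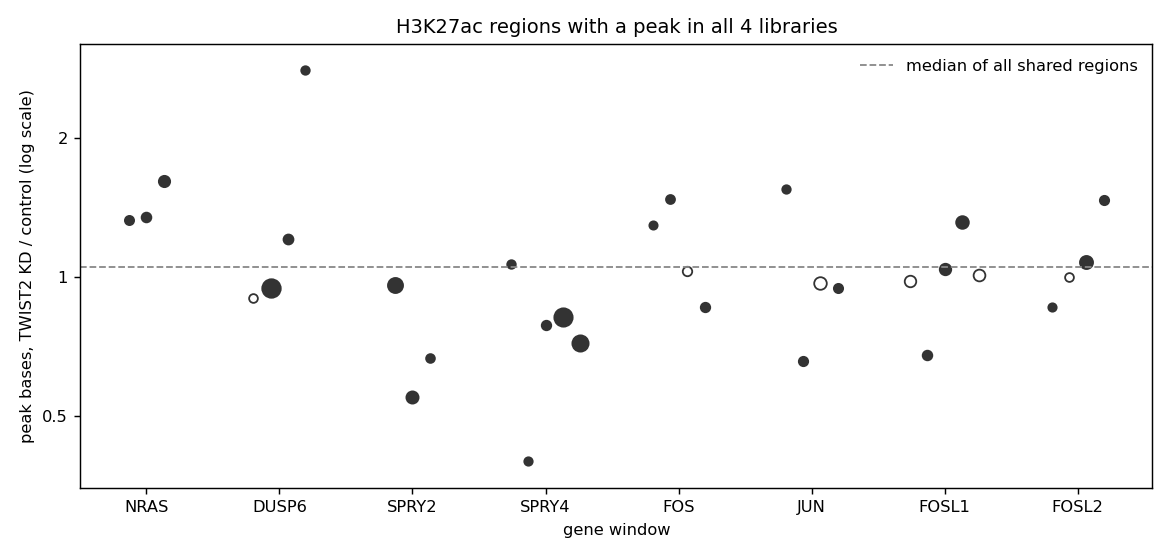
Ratio of peak bases, TWIST2 KD over control, on a log scale for each of the 32 shared H3K27ac regions, in order of position within each window. Larger points are longer regions, open points mark regions whose groups overlap, and the dashed line is the genomic median of 1.05. The 3 NRAS regions lie above the line, and 7 of 8 SPRY2 and SPRY4 regions lie below 1.

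At FOS, the partner of JUN that ERK signalling induces, coverage was 12175 and 11364 bp in KD libraries and 8740 and 7850 bp in control libraries, a ratio of 1.42, with 7 and 6 peaks in KD libraries and 4 and 4 in control libraries. With the first 0.5 of each list alone the difference was -2268 bp, KD minus control. Its widest region, chr14:75760054-75763172, went the other way, with 2654 and 2643 bp in KD libraries and 3079 and 3074 bp in control libraries. KD cells had in addition 2 regions with a peak in both KD libraries and no control library (KD-only regions). These were chr14:75704222-75705284, with KD peaks of 1011 and 923 bp, and chr14:75733116-75734744, with KD peaks of 1629 and 1453 bp.

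JUN, the partner of the FOS proteins in AP-1, had 15645 and 14730 bp in KD libraries and 15132 and 14900 bp in control libraries, and the groups overlapped. Its widest region, chr1:59244685-59252110, also overlapped between groups, with 7151 and 6859 bp in KD libraries and 7343 and 7112 bp in control libraries. Away from it the window held a region of each kind. One KD-only region, chr1:59294694-59296617, had KD peaks of 1806 and 1895 bp. A control-only region, chr1:59235381-59236390, had control peaks of 938 and 1010 bp.

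At FOSL1, which encodes the FOS family protein FRA1, coverage was 27021 and 26725 bp in KD libraries and 26041 and 26815 bp in control libraries, and the groups overlapped. The widest region, chr11:65664294-65671834, was divided in control libraries and not in KD libraries. It was 1 peak of 7473 and 7491 bp in KD libraries and 2 peaks covering 5237 and 6128 bp in control libraries. Peak number was 6 and 5 in KD libraries and 7 and 7 in control libraries.

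At FOSL2, which encodes its relative FRA2, coverage was 17079 and 16889 bp in KD libraries and 15251 and 14284 bp in control libraries, a ratio of 1.15. The widest region, chr2:28612186-28620318, had 8077 and 7763 bp in KD libraries and 7494 and 7218 bp in control libraries. FOSL2 had 2 KD-only regions, chr2:28669073-28669704 (501 and 632 bp) and chr2:28670215-28672234 (1896 and 1752 bp), which lay close together. Its control-only region, chr2:28578319-28580045, had control peaks of 1727 and 1328 bp.

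In all, 5 of 49 H3K27ac regions in the windows were KD-only (10.2%), against 19.8% of 55905 regions in the genome. They lay in the AP-1 windows, which hold 30 of the 49 regions, and this distribution was not tested. With all lists cut to an equal number of peaks there were 3. There were 2 control-only regions (4.08%, against 4.21%) and 32 shared regions (65.3%, against 49.1%).

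**Figure D4:**
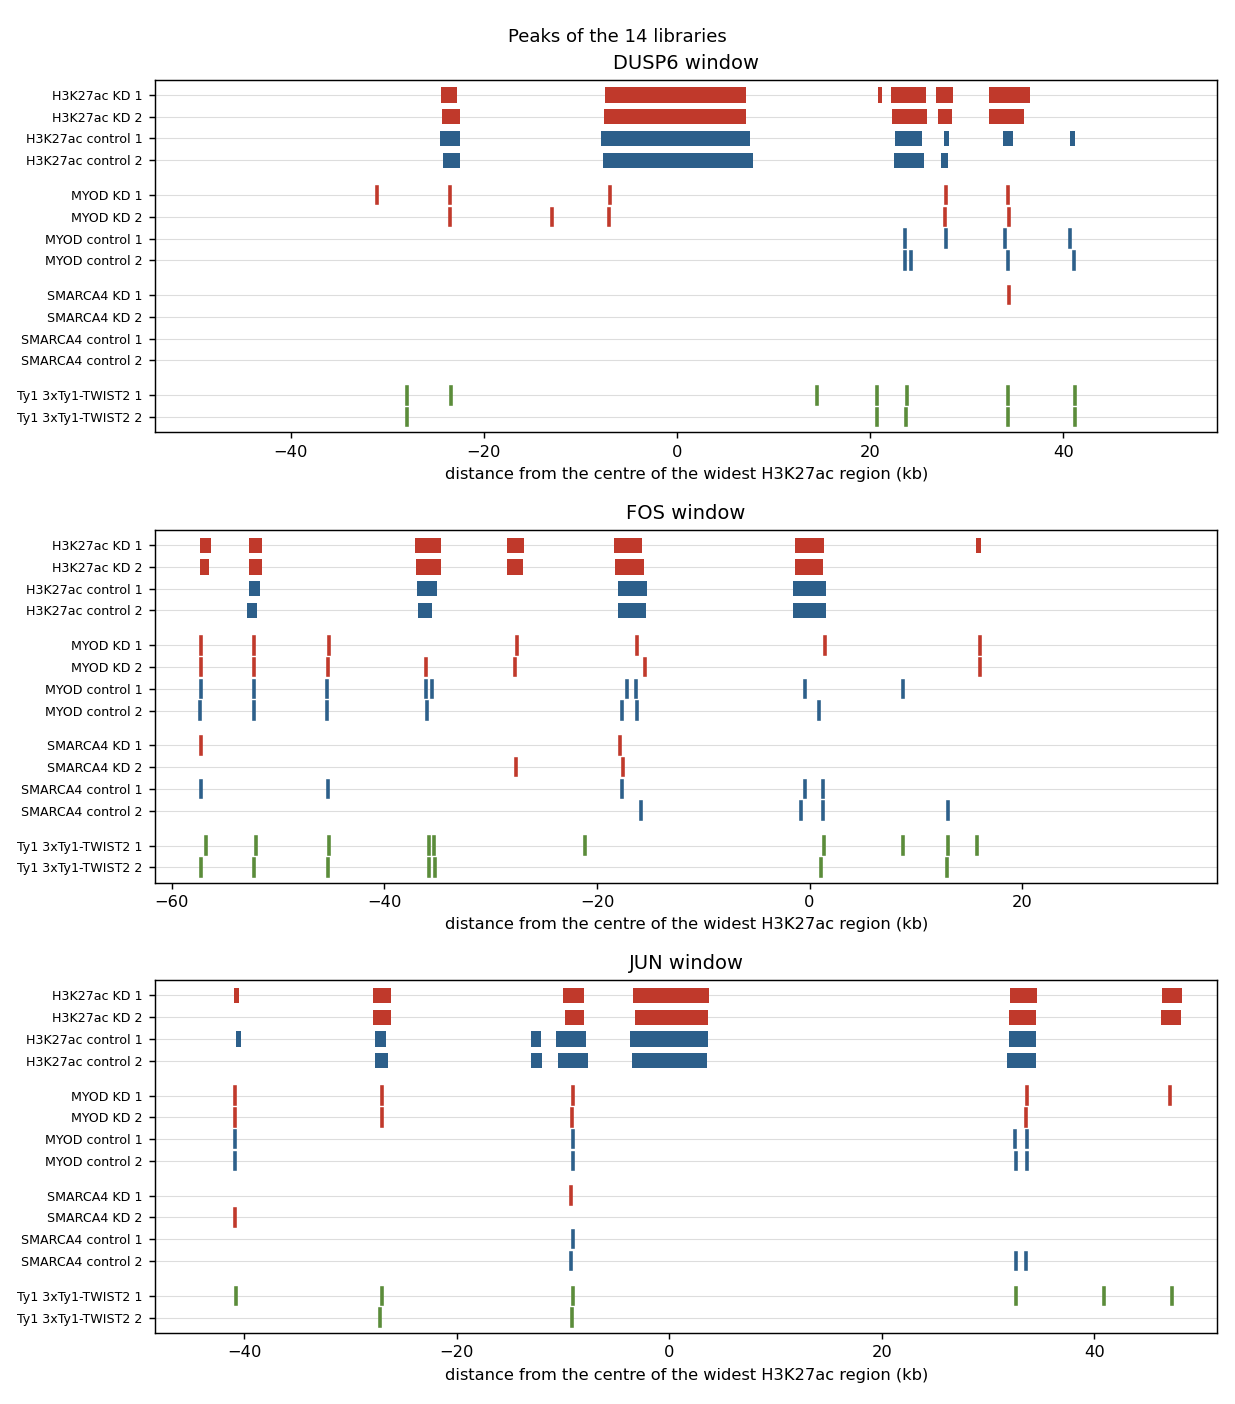
Peaks of the 14 libraries in the DUSP6, FOS and JUN windows, as distance in kb from the centre of the widest H3K27ac region, drawn as in the map of the Sprouty windows. FOS shows 2 and JUN 1 position with H3K27ac boxes in both KD rows alone, and DUSP6 shows wider KD boxes to the right of its widest region.

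MYOD peaks around the 8 genes numbered 45 and 41 in KD libraries and 43 and 44 in control libraries (p = 1.000, exact permutation test, n = 2 each). Per 10000 peaks of the list they numbered 8.57 and 8.54 in KD libraries and 9.56 and 10.14 in control libraries. DUSP6 alone of the 8 windows had groups that did not overlap, with 5 and 5 peaks in KD libraries and 4 and 4 in control libraries, against 21.2% of 16774 tiles higher and 8.02% lower. Of 76 merged MYOD regions, 20 (26.3%) had a peak in all 4 libraries, against 20.3% of 88541 regions in the genome. A peak in a single library was found for 30 of the 76, and the genomic share of such regions was not counted.

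There were 7 KD-only MYOD regions (9.21%, against 9.10% in the genome) and 5 control-only regions (6.58%, against 5.41%). DUSP6 had 2 KD-only regions, chr12:89720428-89720676 and chr12:89736886-89737235, both inside shared H3K27ac regions, and the control-only region chr12:89767607-89767785. It was the 1 window of the 8 without a shared MYOD region. How often tiles of the genome lack one was not counted. FOS had 2 KD-only regions. The first, chr14:75733743-75734172, lay inside the second KD-only H3K27ac region of that window, and the other was chr14:75777512-75777736. In the JUN window, the KD-only MYOD region chr1:59221259-59221499 lay in a shared H3K27ac region with 1747 and 1660 bp in KD libraries and 962 and 1235 bp in control libraries, and chr1:59280915-59281142 was control-only.

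FOSL1 had the KD-only region chr11:65655653-65656000 and the control-only region chr11:65641099-65641398. FOSL2 had the KD-only region chr2:28668734-28668972 and the control-only region chr2:28600919-28601189. At NRAS, chr1:115300458-115300643 was control-only, inside the widest H3K27ac region, which was wider in KD cells. No MYOD region at SPRY2 or SPRY4 was found in both libraries of 1 group alone, and SPRY4 had 5 shared MYOD regions.

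SMARCA4 peaks in the windows numbered 11 and 11 in KD libraries and 15 and 26 in control libraries, a ratio of 0.54 (p = 0.333, exact permutation test, n = 2 each). Over all tiles of the genome this ratio was 0.74. Per 10000 peaks of the list they numbered 8.79 and 7.50 in KD libraries and 12.67 and 10.39 in control libraries. With the first 0.5 of each list by score the difference was -4 peaks, and the groups overlapped (p = 0.667, exact permutation test, n = 2 each). The groups did not overlap at NRAS (1 and 1 in KD libraries, 2 and 3 in control libraries), SPRY2 (0 and 0 in KD libraries, 1 and 1 in control libraries), SPRY4 (2 and 2 in KD libraries, 4 and 5 in control libraries) and FOS (2 and 2 in KD libraries, 5 and 4 in control libraries). All 4 windows were lower in KD cells, against 11.9% of 14839 tiles, and none was higher, against 4.58%. The 8 windows held 1.82 times as many SMARCA4 peaks as the average tile.

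Both control libraries had more tags and a higher share of tags in peaks than both KD libraries, and the part of this in the difference was not tested. Control library 2 had the longest list and the highest share of tags in peaks. Without it the difference of the means was -4.00 peaks, in place of -9.50, and without control library 1 it was -15.0 peaks. At DUSP6, KD library 1 had 1 SMARCA4 peak and the other 3 libraries had none.

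SMARCA4 positions repeated little between libraries, in the windows as in the genome. Of 46 regions, 33 had a peak in 1 library only, and the genomic share of such regions was not counted. None had a peak in all 4, against 1.11% of 48009 regions in the genome. Regions that were neither KD-only, control-only nor shared made up 91.3% in the windows and 90.3% in the genome. No region was KD-only (1.91% in the genome), and 4 were control-only (8.70%, against 6.68%). These were chr1:115293559-115293784 at NRAS, chr5:141667299-141667545 at SPRY4, chr14:75762817-75763011 at FOS and chr11:65683251-65683456 at FOSL1. In the authors' deposited values the NRAS peak had 7.71 and 11.4 normalized tags in control libraries, with 5.05- and 5.16-fold more tags than the input. All 4 lay inside shared H3K27ac regions. The one at SPRY4 fell in the region with 501 and 765 bp of H3K27ac in KD libraries and 1657 and 1473 bp in control libraries.

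**Figure D5:**
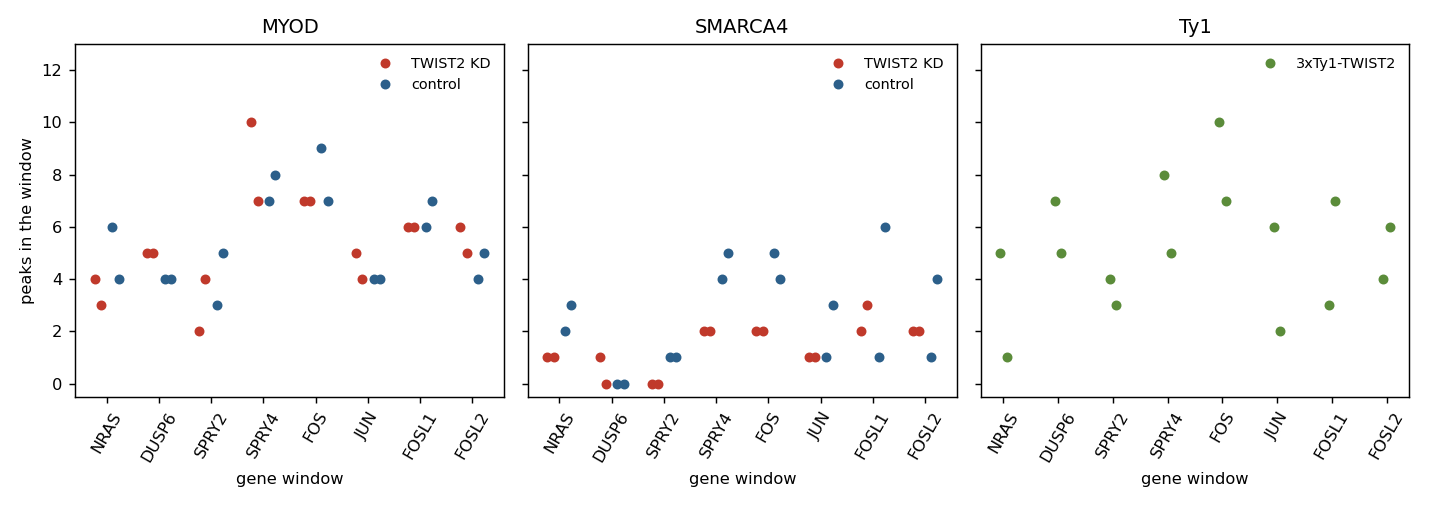
Number of MYOD, SMARCA4 and Ty1 peaks in each gene window, with 1 point per library and TWIST2 KD left of control. SMARCA4 points of KD cells lie below those of control cells at NRAS, SPRY2, SPRY4 and FOS, while MYOD points separate at DUSP6 alone.

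Tagged TWIST2 had 47 and 36 Ty1 peaks in the windows, which merged into 59 regions. Of these, 24 (40.7%) had a peak in both libraries (TWIST2 regions) and 35 in 1 library, against 50.3% of 96594 regions in the genome with a peak in both. Every window held at least 1: DUSP6 and FOS had 5 each, FOSL2 4, SPRY4 3, SPRY2, JUN and FOSL1 2 each, and NRAS 1. A shared H3K27ac region overlapped 14 of the 24 (58.3%), against 33.2% of 48591 TWIST2 regions in the genome. A shared MYOD region overlapped 6 of 24 (25.0%), against 17.2%. The windows held 1.88 times as many H3K27ac and 1.92 times as many MYOD peaks as the average tile. The part of this density in these overlaps was not tested. Counted the other way, a TWIST2 region overlapped 13 of 32 shared H3K27ac regions (40.6%), against 52.0% in the genome. It overlapped 6 of 20 shared MYOD regions (30.0%), against 46.6%. The windows held no SMARCA4 region of all 4 libraries, so none could overlap a TWIST2 region (0.508% in the genome).

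The 6 TWIST2 regions at shared MYOD sites lay at NRAS and at AP-1 genes. At NRAS it was chr1:115293480-115293766, where the control-only SMARCA4 region also lay. The H3K27ac region around it had 3482 and 3040 bp in KD libraries and 2437 and 2386 bp in control libraries. At FOS they were chr14:75709201-75709622 and chr14:75716215-75716471. At JUN it was chr1:59239188-59239428, inside an H3K27ac region with 1977 and 1766 bp in KD libraries and 2835 and 2816 bp in control libraries. At FOSL2 they were chr2:28569523-28569820 and chr2:28636381-28636724. The second of these lay in an H3K27ac region with 2903 and 2748 bp in KD libraries and 2002 and 1836 bp in control libraries. H3K27ac regions that held both factors were therefore wider in KD cells at some sites and narrower at others.

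Of the 10 TWIST2 regions at the 3 feedback inhibitors, 0 overlapped a shared MYOD region, against 6 of 14 at the other genes and 17.2% in the genome. The 5 at DUSP6 could not, because that window held no shared MYOD region. A MYOD region of any library overlapped 7 of the 10 and 11 of the 14. The difference between these genes was not tested. Both SPRY2 TWIST2 regions lay in H3K27ac regions with fewer bases in KD cells, at chr13:80916934-80917309 in the widest and at chr13:80933308-80933587 in the one divided in KD cells. At SPRY4, chr5:141700441-141700679 lay in the broadest region. Another of FOSL2, chr2:28668841-28669124, overlapped both the KD-only MYOD region and the first KD-only H3K27ac region of that window. Within 100 bp of the centres of the 24 TWIST2 regions there was a MYOD peak centre at 10 and 9 (41.7 and 37.5%) in KD libraries and at 7 and 7 (29.2% each) in control libraries. Over all 48591 TWIST2 regions these shares were 25.1 and 24.5% in KD libraries and 23 and 22.6% in control libraries. For SMARCA4 the numbers were 2 and 2 of 24 (8.33% each) in KD libraries and 3 and 5 (12.5 and 20.8%) in control libraries, and the shares over all TWIST2 regions were 5.50 and 5.99% in KD libraries and 5.76 and 12.4% in control libraries.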

How the data were processed

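Of 24 samples in the series, 14 had a peak list, and the 10 inputs were not used here. The submitters' processing notes name Bowtie2 2.3.4.3, SAMtools 0.1.19, bedtools 2.29.2, HOMER 4.4 and builds GRCh37 and hg19. Lists deposited for H3K27ac, MYOD and Ty1 hold positions only, with no setting of the caller in the sources used here. Per the file headers, SMARCA4 peaks were called by HOMER with an input as control, a false discovery rate of 0.001 and a minimum of 4-fold enrichment. The SMARCA4 lists also give a deposited tag signal scaled by the authors to 10000000 tags, a HOMER score and a fold ratio over input for each peak. These are the authors' values and were used only to describe or rank peaks within a list. Peaks were called per library.

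Peaks of an antibody were merged across its 4 libraries where they overlapped by at least 1 bp. Regions were KD-only or control-only (both libraries of that group, none of the other), shared (all 4) or other. Peak bases were clipped at window edges. Library values were compared by the exact two-sided permutation test. Its p-value is the share of all splits of these libraries with a difference at least as large, and it concerns these libraries only. Backgrounds were all merged regions and 110 kb tiles of chromosomes 1 to 22 and X with a peak. Code was tested on simulated data. Named were the widest H3K27ac region of each window, regions found in 1 group alone, and TWIST2 regions at shared MYOD sites or at SMARCA4 regions of all 4 libraries. The members, windows and lists were chosen with earlier results of these data known. No hg19 annotation was used, so other genes of the pathway were not analysed here. Python 3.11.15, numpy 2.4.6, pandas 2.3.3, scipy 1.17.1 and matplotlib 3.10.9 were used.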

Additional observations from a re-analysis of the deposited data

How the results depend on the processing

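Of 207 values under alternative settings, 174 kept their direction or, for counts, stayed within 1.5 times the reported number, 25 moved and 8 reversed. The 174 include the replicate block (below), which reuses each difference and always counts as kept. Lists without a score (H3K27ac, MYOD and Ty1) were cut by their order in the file, whose meaning the files do not give, so the first peaks of a list need not be the strongest. H3K27ac coverage stayed lower in KD cells at SPRY2 and SPRY4, and higher at NRAS, DUSP6 and FOSL2, in 9 of 9 alternatives. At FOS it stayed higher in 8 of 9 (-2268 bp, KD minus control, with the first 0.5 of each list). Leaving out a library cannot reverse groups that do not overlap, and peaks wholly within a window gave the same values. Only wider windows, equal numbers of peaks and the first 0.5 tested these directions. At FOSL1 and JUN the groups overlapped. FOSL1 ranged from 58.0 bp (without control replicate 1) to 1208 bp, and JUN from -286 bp (without KD replicate 1) to 629 bp. JUN was -79.0 bp with equal numbers of peaks.

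The difference in H3K27ac peaks (6) was -2 with equal numbers of peaks and -1.37 per 10000 peaks, and that in covered bases (2778 bp) was -3052 bp with equal numbers. With a library left out they ranged from 3.5 (without KD replicate 1) to 8.5 peaks (without KD replicate 2) and from 152 bp (without control replicate 2) to 5403 bp (without control replicate 1), and the SMARCA4 difference from -15.0 to -4.00 peaks. With the first 0.5 of each SMARCA4 list, by score, the difference was -4.00 peaks and the groups overlapped. The difference in MYOD peaks (-0.5) ranged from -2.5 to 1.5 with a library left out, and was 0 without control replicate 2. MYOD covered bases (2048 bp) differed by -100 bp when every peak was set to 200 bp, so the difference came from the width of each list. With equal numbers of peaks, KD-only H3K27ac regions numbered 3 and control-only ones 4. The first 0.5 of each list (for SMARCA4, by score) gave 3 KD-only H3K27ac, 2 control-only SMARCA4 and 13 TWIST2 regions. Windows widened by 20 kb gave 4 control-only H3K27ac regions, and merging at an overlap of 0.5 of the shorter peak gave 3 control-only MYOD regions. A peak in either Ty1 library gave 59 regions.

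Leaving out 1 library loosens the definition of a class. H3K27ac then had 5 to 8 KD-only and 2 to 4 control-only regions, MYOD had 11 to 15 KD-only and 6 to 15 control-only regions, and SMARCA4 had 0 to 7 KD-only and 5 to 20 control-only regions. TWIST2 regions numbered 36 to 47. The highest counts came without KD replicate 2 for KD-only H3K27ac and MYOD regions, without KD replicate 1 for KD-only SMARCA4 regions, without either control library for control-only H3K27ac and MYOD regions, without control replicate 1 for control-only SMARCA4 regions, and without Ty1 replicate 2 for TWIST2 regions. The cause of these shifts beyond that was not tested. With the replicate number as a block (replicate block, sign flips over 2 pairs, smallest p 0.5), differences were 6 H3K27ac, -0.5 MYOD and -9.5 SMARCA4 peaks, with exact p of 0.5, 1.000 and 0.5. The labels do not say that numbers pair the libraries.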
